A study of Mus musculus with 8 samples.

Results

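The genes described here are 10 genes of leukotriene and prostaglandin synthesis, chosen by name: *Alox5*, *Alox5ap*, *Lta4h*, *Ltc4s*, *Ptgs1*, *Ptgs2*, *Ptges*, *Ptges2*, *Ptges3*, and *Hpgds*. All 10 were among the 16536 genes of the count table, and all 10 were among the 15421 genes that passed the filter on low counts and were tested. *Alox5*, *Alox5ap*, and *Lta4h* together carry arachidonic acid to leukotriene B4. Their levels were higher in libraries of cells sorted as mCherry+CD73+ from growth plates of SAG-treated than of DMSO-treated mice (n = 4 each), by 2.91-fold, 3.22-fold, and 2.43-fold. The call for *Lta4h* was lost when any 1 of 7 mice was left out. In the same libraries 12 of 18 neutrophil markers were also called higher with SAG and 0 lower. With the mean of these markers as a covariate, 0 of the 10 genes and 0 genes of the whole table were called higher. The log2 fold changes were then 1.11 for *Alox5*, 0.98 for *Alox5ap*, and 0.51 for *Lta4h*. Of the variance of that mean 75.9% lay between the groups, so this fit cannot tell the markers from the treatment. Which cells in the libraries carried the difference was not tested. Over all genes 2.62% were called higher and 0.266% lower. Of the 6 prostaglandin genes, 0 passed the same test in edgeR, 2 were higher at an unadjusted p under 0.05 (9.58% of all genes), and DESeq2 and limma voom called 1 each (6.60% and 6.45% of the genes each gave an adjusted p).

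The cells came from Pthrp-mCherry mice, whose mCherry reporter labels cells expressing *Pthlh* (PTHrP), and were sorted from growth plates by flow cytometry for mCherry and for CD73, a surface enzyme encoded by *Nt5e*. One group of 4 mice received i.p. SAG, a small molecule that activates Smoothened in the Hedgehog pathway, and the other group of 4 mice received the vehicle DMSO. Both groups carried the reporter, were injected once daily from P30 to P36 (P31 to P37 in the study's methods), and were sacrificed at P38. Each library was made from 1 mouse, so the replicates are animals. No step that removed blood cells is given for the sort. Libraries held between 24971992 and 46593090 counts, and DMSO replicate 4 stood apart with the fewest counts and with the fewest genes detected (14416, against 15524 or more in the others). No pair of libraries was as close as sampling noise would make them. Expression is given in CPM, counts divided by library size after TMM scaling, and 3 counts amount to between 0.0670 and 0.114 CPM, which covers counting error only.

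Leukotrienes and prostaglandins are short-lived lipid mediators made from arachidonic acid, which phospholipases release from membranes. 5-lipoxygenase (*Alox5*), helped by its membrane partner FLAP (*Alox5ap*), forms leukotriene A4. Leukotriene A4 hydrolase (*Lta4h*) turns this into leukotriene B4, a neutrophil attractant, and leukotriene C4 synthase (*Ltc4s*) turns it into the first of the cysteinyl leukotrienes. On the other branch the cyclooxygenases COX-1 (*Ptgs1*) and COX-2 (*Ptgs2*) form prostaglandin H2, from which the prostaglandin E synthases (*Ptges*, *Ptges2*, *Ptges3*) and the hematopoietic prostaglandin D synthase (*Hpgds*) make their products. Neutrophils and other myeloid cells are known for the leukotriene branch, mast cells and eosinophils for *Ltc4s*, and many stromal cells for an inducible *Ptgs2*.

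The sequences upstream of 4 of these genes are shown because 2 of them, *Alox5* and *Lta4h*, passed the test with SAG, while *Ptgs1* and *Ptgs2* are the isozyme pair that did not. A window was matched by symbol for 9 of the 10 genes in RefSeq (build GRCm38.p6), and there was no entry for *Alox5ap*. Each line gives the 250 bases before the RefSeq start of the gene, 5′ to 3′ on the strand of the gene. Capitals mark matches on either strand to the GC box (GGGCGG), the core of PU.1 sites (GAGGAA, which reads TTCCTC on the other strand), and a palindrome bound by C/EBP factors (TTGCGCAA). These motifs were chosen after the windows had been read, and their matches do not overlap in the 4 windows shown.
*Alox5*, chr6:116461179-116461428, minus strand: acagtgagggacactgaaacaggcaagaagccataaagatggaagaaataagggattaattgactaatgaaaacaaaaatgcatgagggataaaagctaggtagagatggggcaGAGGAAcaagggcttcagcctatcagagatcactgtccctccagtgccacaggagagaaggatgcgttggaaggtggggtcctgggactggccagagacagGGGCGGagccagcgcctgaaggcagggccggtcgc
*Lta4h*, chr10:93453146-93453395, plus strand: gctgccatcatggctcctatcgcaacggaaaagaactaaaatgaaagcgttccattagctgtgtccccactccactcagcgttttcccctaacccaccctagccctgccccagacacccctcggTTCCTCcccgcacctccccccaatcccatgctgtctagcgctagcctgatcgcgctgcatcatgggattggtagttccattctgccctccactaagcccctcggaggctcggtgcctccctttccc
*Ptgs1*, chr2:36230176-36230425, plus strand: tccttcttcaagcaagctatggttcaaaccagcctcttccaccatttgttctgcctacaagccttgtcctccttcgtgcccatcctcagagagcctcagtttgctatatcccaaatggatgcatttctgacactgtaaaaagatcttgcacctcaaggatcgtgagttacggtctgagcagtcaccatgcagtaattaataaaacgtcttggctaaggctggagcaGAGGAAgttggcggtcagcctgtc
*Ptgs2*, chr1:150099781-150100030, plus strand: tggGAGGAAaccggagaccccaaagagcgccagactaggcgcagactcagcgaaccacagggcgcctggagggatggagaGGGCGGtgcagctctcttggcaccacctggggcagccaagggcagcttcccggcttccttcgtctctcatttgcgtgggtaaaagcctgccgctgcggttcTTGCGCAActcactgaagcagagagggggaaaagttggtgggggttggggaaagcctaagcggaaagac
The PU.1 core lay 136 bases before the start of *Alox5*, 126 before that of *Lta4h*, 24 before that of *Ptgs1*, and 247 before that of *Ptgs2*, so it was present both in genes that passed the test and in genes that did not. Of the 9 matched windows 6 held it, those of *Ptges* and *Hpgds* included and those of *Ltc4s*, *Ptges2*, and *Ptges3* not, beside 23.25% of all 32851 mouse promoter windows of this length. The GC box lay 35 bases before the start of *Alox5* and 170 before that of *Ptgs2*, and 4 of the 9 windows (with *Ptges* and *Ptges3*) and 32.74% of all windows held it. The C/EBP palindrome was found in the *Ptgs2* window alone of the 9, 69 bases before the start, and in 0.164% of all windows. Such matches describe letters in a window and are not evidence of binding.

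*Alox5*, on chromosome 6 of GRCm38 from 116410077 to 116461178, was measured at 77.1, 107, 134, and 97.9 CPM in DMSO replicates 1 to 4. In SAG replicates 1 to 4 it reached 268, 403, 227, and 313 CPM, and the lowest SAG-treated mouse lay above the highest DMSO-treated mouse. The log2 fold change was 1.54 (standard error, SE, 0.23, edgeR adjusted p = 0.0102, quasi-likelihood test with Benjamini-Hochberg adjustment over all genes tested). The call held with every mouse left out in turn, with log2 fold changes between 1.37 and 1.66 and adjusted p between 0.00322 and 0.0454 in edgeR.

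*Alox5ap*, on chromosome 5 from 149264767 to 149288153, encodes the partner that presents arachidonic acid to 5-lipoxygenase. Its level was 71.7, 103, 101, and 145 CPM in DMSO replicates 1 to 4 and 316, 369, 296, and 375 CPM in SAG replicates 1 to 4. The groups did not overlap, with every SAG-treated mouse above the highest DMSO-treated mouse. *Alox5ap* had the highest log2 fold change of the 10 genes, 1.69 (SE 0.22, edgeR adjusted p = 0.0102), and this call also held in all 8 fits that left out 1 mouse (edgeR adjusted p between 0.000817 and 0.0454). An antisense RNA, Gm19719, overlaps *Alox5ap*, and whether strand was used in counting is not given in the sources used here.

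*Lta4h*, on chromosome 10 from 93453411 to 93484875, was measured at 142, 259, 278, and 326 CPM in DMSO replicates 1 to 4. In SAG replicates 1 to 4 its level was 678, 790, 527, and 444 CPM. Again no SAG-treated mouse overlapped the DMSO group, and SAG replicates 1 and 2 lay well above replicates 3 and 4. The log2 fold change was 1.28 (SE 0.27, edgeR adjusted p = 0.0299). With 1 mouse left out this call held only without DMSO replicate 4 (adjusted p = 0.00683), and without any 1 of the other 7 mice, DMSO replicates 1 to 3 and SAG replicates 1 to 4, the adjusted p lay between 0.0519 and 0.105 while the log2 fold change stayed between 1.09 and 1.41. Over all 17 alternatives its adjusted p was between 0.00086 and 0.617.

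*Ltc4s*, the enzyme that starts the cysteinyl branch, on chromosome 11 from 50236461 to 50238616, was scarce. It had 143, 0, 121, and 0 counts in DMSO replicates 1 to 4, and 68, 44, 75, and 195 counts in SAG replicates 1 to 4. The 2 zeros allow at most 0.0670 CPM in DMSO replicate 2 and 0.114 CPM in DMSO replicate 4, whereas the other mice had between 1.05 and 4.45 CPM. The groups overlapped, and the log2 fold change of 0.41 had a standard error of 1.57 (edgeR, adjusted p = 0.941), so no difference was detectable. Its sign turned to -0.00 without DMSO replicate 2 and to -0.11 without SAG replicate 4. An antisense gene, Gm26542, overlaps *Ltc4s*.

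**Figure D1:**
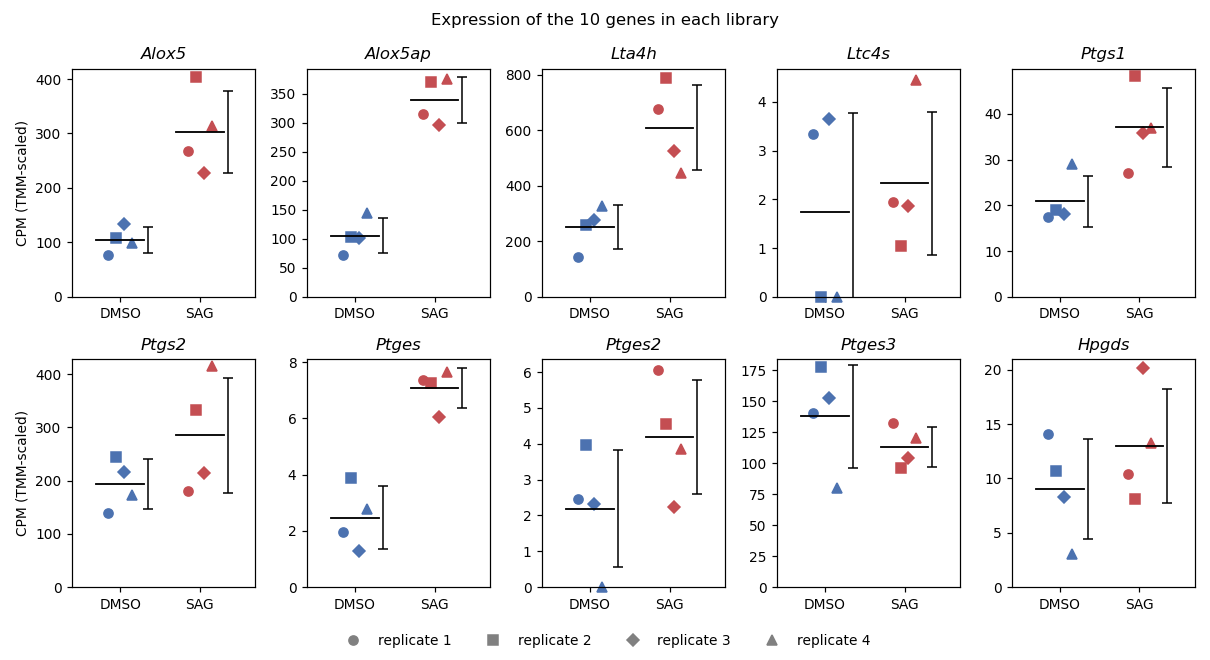
CPM scaled by TMM (vertical axes, each from 0) of the 10 genes in DMSO-treated (blue) and SAG-treated (red) mice, 1 symbol per mouse with the shape giving the replicate number. Black lines are group means and bars show the SD (n = 4); the groups do not overlap for *Alox5*, *Alox5ap*, *Lta4h*, and *Ptges*.

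Of the 10 genes, 3 passed the test and were higher with SAG, 0 were lower, and 7 did not pass. The shares over all genes tested were again 2.62% higher and 0.266% lower. Among the 10, 5 were higher and 0 lower when an unadjusted p under 0.05 was taken, beside 9.58% and 6.50% of all genes. DESeq2 called 4 higher, adding *Ptges*, and 0 lower, beside 6.60% and 3.35% of the genes to which it gave an adjusted p. With limma voom 4 were higher, adding *Ptgs1*, and 0 lower, beside 6.45% and 2.58%. Without DMSO replicate 4 edgeR also called 4, again with *Ptgs1*. The SAG group lay wholly above the DMSO group in 4 of the 10 genes and in 7.90% of all genes, and wholly below it in 0 of the 10 and in 3.84% of all genes. The median log2 fold change of the 10 genes was 0.88, beside -0.08 over all genes tested. The 4 leukotriene genes summed to between 294 and 569 CPM in DMSO-treated mice and to between 1052 and 1563 CPM in SAG-treated mice.

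Markers of neutrophils were higher with SAG, as were *Alox5*, *Alox5ap*, and *Lta4h*. The sum of 18 neutrophil markers was between 5502 and 15517 CPM with DMSO and between 29373 and 46640 CPM in SAG-treated mice, and 12 of the 18 were called higher and 0 lower. *S100a8*, a granulocyte calcium-binding protein, had a log2 fold change of 2.25 (edgeR adjusted p = 0.0102), and *Csf3r*, the receptor of the neutrophil growth factor G-CSF, one of 1.17 (edgeR adjusted p = 0.0175). Of the 6 markers not called, *Ly6g* and *Cebpe* were higher without overlap of the groups. *Elane*, *Mpo*, *Prtn3*, and *Ctsg* overlapped, with log2 fold changes between 0.22 and 0.87 (edgeR adjusted p between 0.551 and 0.935). Within the groups the order of the mice was only in part the same. Among SAG-treated mice the neutrophil sum and *Alox5* and *Lta4h* were highest in replicate 2, but *Alox5ap* was highest in replicate 4, which had the second highest neutrophil sum and the lowest *Lta4h*. Among DMSO-treated mice the sum, *Alox5ap*, and *Lta4h* were highest in replicate 4 and *Alox5* in replicate 3. With the mean of the neutrophil markers as a covariate, 0 of the 10 genes were called, and the log2 fold changes were 1.11 for *Alox5* (adjusted p = 0.329), 0.98 for *Alox5ap* (adjusted p = 0.276), and 0.51 for *Lta4h* (adjusted p = 0.617, all from edgeR). With it 0 genes of the whole table were called higher and 10 lower, and 75.9% of the variance of that marker mean lay between the groups. In bulk samples, more cells of a type and more RNA per cell cannot be told apart, nor can fewer cells and less RNA per cell.

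Sums of other myeloid markers overlapped between the groups. The 12 monocyte and macrophage markers summed to between 373 and 798 CPM in DMSO-treated and to between 609 and 798 CPM in SAG-treated mice, with 1 of 12 called higher (*Ly6c2*) and 0 lower. The 7 eosinophil markers ranged from 3471 to 20543 CPM and from 4792 to 30881 CPM, with 0 called (0 without adjustment, and 0 in DESeq2 and limma voom). Of 10 mast cell and basophil markers 6 were in the table, with sums between 38.4 and 125 CPM and between 37.9 and 104 CPM, and the mast cell protease *Cpa3* was at 0 in DMSO replicate 4 and at 18.2 CPM or less in the other mice. The labelled growth plate identity was seen in 13 chondrocyte markers at between 46569 and 105861 CPM with DMSO and between 18569 and 52410 CPM with SAG, of which 0 were called although 12 had lower levels at an unadjusted p under 0.05. DESeq2 called 5 of them lower and limma voom 8. Both genes of the sort were detected in every library. *Pthlh*, behind the reporter, was between 14.9 and 22.1 CPM with DMSO and between 18.4 and 29.9 CPM with SAG (log2 fold change 0.37, edgeR adjusted p = 0.606). *Nt5e*, which encodes CD73, was between 184 and 270 CPM with DMSO and between 149 and 174 CPM with SAG, wholly below, with a log2 fold change of -0.51 that passed 0.05 before adjustment but not after it (edgeR adjusted p = 0.186). Markers of 9 B-lineage genes, whose cells can also express *Alox5*, summed to between 75.0 and 309 CPM with DMSO and between 17.6 and 40.8 CPM with SAG, without overlap. Of their 8 tested genes 2 were called lower (*Cd79a* and *Pax5*), all 8 were lower without adjustment, and the median log2 fold change was -3.24. Sums of the megakaryocyte, T/NK, erythroid, endothelial, osteoblast, and osteoclast markers overlapped between the groups, with 0 called in any of the 6 lists (without adjustment 1 T/NK gene was higher, and 1 T/NK, 2 osteoblast, and 1 osteoclast genes were lower, and the other tools called only osteoblast genes, 2 lower in DESeq2 and 1 in limma voom). No marker of these lists that was in the table stood at 0 in all libraries. Whether the cells behind any of these lists, neutrophils included, had a part in the results was not tested.

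**Figure D2:**
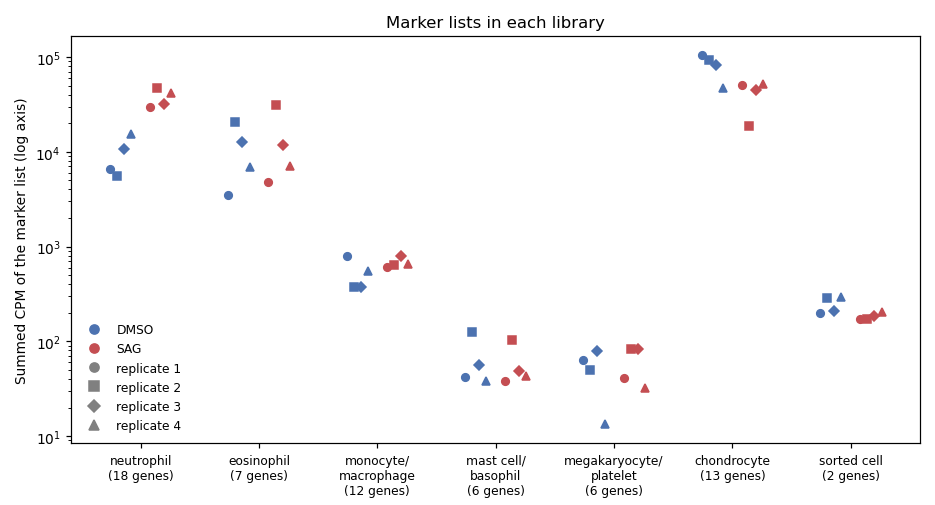
Summed CPM of 7 marker lists (vertical axis, logarithmic) in each DMSO-treated (blue) and SAG-treated (red) mouse, with the number of marker genes in the table under each name and the symbol shape giving the replicate number. Neutrophil sums do not overlap between the groups (at most 15517 with DMSO, at least 29373 with SAG), while eosinophil, monocyte, and mast cell sums do.

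*Ptgs1*, the gene of the constitutive cyclooxygenase, on chromosome 2 from 36230426 to 36252272, was measured at 17.4, 18.9, 18, and 29.1 CPM in DMSO replicates 1 to 4. In SAG replicates 1 to 4 it was at 27.1, 48.3, 35.8, and 37.0 CPM. The groups overlapped only because DMSO replicate 4 lay above SAG replicate 1. The log2 fold change was 0.83 (SE 0.28, edgeR adjusted p = 0.161), and *Ptgs1* did not pass the test. Without DMSO replicate 4 it was 1.06 and passed (edgeR adjusted p = 0.0289), and limma voom with sample weights also called it (adjusted p = 0.0377). Over all 17 alternatives the adjusted p of *Ptgs1* was between 0.0289 and 0.893.

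*Ptgs2*, the inducible cyclooxygenase, on chromosome 1 from 150100031 to 150108227, was the more abundant of the pair and made up between 85.6% and 92.8% of their counts in every library. Its level was 139, 245, 217, and 173 CPM in DMSO replicates 1 to 4 and 180, 333, 214, and 415 CPM in SAG replicates 1 to 4. SAG replicates 1 and 3 lay inside the DMSO range and SAG replicates 2 and 4 above it. The log2 fold change of 0.56 (SE 0.28, edgeR adjusted p = 0.364) did not pass under any of 17 alternatives, whose adjusted p was between 0.209 and 0.720. It was 0.33 without SAG replicate 4, the highest mouse, and at most 0.73 (without SAG replicate 1) with 1 mouse left out.

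*Ptges*, the inducible microsomal synthase that works with COX-2, on chromosome 2 from 30889471 to 30929863, was scarce but separated the groups. It was measured at 1.96, 3.86, 1.27, and 2.77 CPM in DMSO replicates 1 to 4, and at 7.36, 7.27, 6.05, and 7.64 CPM in SAG replicates 1 to 4. Every SAG-treated mouse therefore had more than any DMSO-treated mouse. The log2 fold change was 1.52, close in size to that of *Alox5*, but its standard error was 0.59 and the gene did not pass edgeR's test (adjusted p = 0.227). DESeq2 called it (adjusted p = 0.0391), as 1 of 17 alternatives, over which the adjusted p was between 0.0391 and 0.515.

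*Ptges2*, a membrane-associated synthase gene on chromosome 2 from 32395896 to 32405772, was scarce. It was at 2.47, 3.97, 2.32, and 0 CPM with DMSO and at 6.06, 4.56, 2.24, and 3.85 CPM with SAG (replicates 1 to 4 in each), where the 0 in DMSO replicate 4 allows at most 0.114 CPM. The groups overlapped, and the log2 fold change was 0.93 with a standard error of 1.13 (edgeR, adjusted p = 0.775). It was 0.54 without DMSO replicate 4, the mouse at 0, and at most 1.38 (without DMSO replicate 2) with 1 mouse left out.

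*Ptges3*, the cytosolic synthase that is also the Hsp90 cochaperone p23, on chromosome 10 from 128058954 to 128077272, was the only one of the 10 genes with a negative fold change. Its level was 141, 177, 152, and 79.8 CPM in DMSO replicates 1 to 4 and 132, 95.8, 104, and 120 CPM in SAG replicates 1 to 4. DMSO replicate 4 was the lowest library and the other DMSO-treated mice were the 3 highest. The log2 fold change of -0.28 (SE 0.24, edgeR adjusted p = 0.648) did not pass the test, and its sign turned to 0.62 with the neutrophil covariate (edgeR adjusted p = 0.507, in a range of 0.162 to 0.885 over 17 alternatives). A processed pseudogene, Ptges3-ps, which may share reads with *Ptges3*, had 346, 0, 38, and 0 counts with DMSO and 427, 470, 772, and 0 counts with SAG, so the level of *Ptges3* is uncertain by the reads that may have been split between them.

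*Hpgds*, the glutathione-dependent prostaglandin D synthase of hematopoietic cells, on chromosome 6 from 65117293 to 65144908, varied widely within both groups. It was measured at 14.1, 10.7, 8.30, and 3.07 CPM with DMSO and at 10.4, 8.15, 20.1, and 13.2 CPM with SAG (replicates 1 to 4 in each). The ranges overlapped widely, and the log2 fold change was 0.52 (SE 0.50, edgeR adjusted p = 0.699). Leaving out 1 mouse moved it between 0.23 (without SAG replicate 3) and 0.82 (without DMSO replicate 1), with 0.26 without DMSO replicate 4. Across the 4 synthases the summed level was between 85.7 and 196 CPM with DMSO and between 116 and 156 CPM with SAG, most of it from *Ptges3*. Models not counted in the table overlap *Ptgs1* (Gm43621), *Ptges* (Gm13400), and *Hpgds* (Gm17147).

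**Figure D3:**
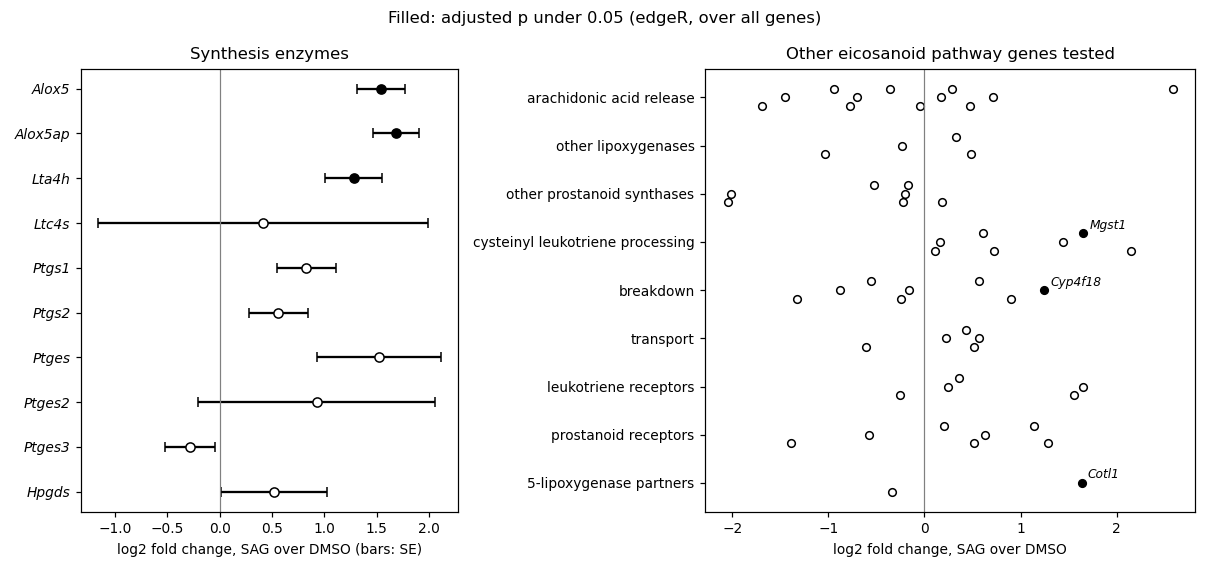
Log2 fold changes of SAG over DMSO for the 10 synthesis genes (left, bars show the standard error) and for 57 other genes of the eicosanoid pathway by role (right, 1 circle per gene). Filled circles passed edgeR's test over all genes (threshold 0.05): *Alox5*, *Alox5ap*, and *Lta4h* on the left and *Mgst1*, *Cyp4f18*, and *Cotl1* on the right.

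Levels of different genes were compared after division by the exon length of each gene in kb, taken from GENCODE M21. This length joins the exons of all annotated transcripts of a gene and may exceed that of the transcripts present. The order of genes therefore depends on it. Before division the mean of *Lta4h* (251 CPM with DMSO, 610 CPM with SAG) lay above that of *Alox5ap* (105 and 339 CPM). In DMSO-treated mice *Alox5ap* led at 74.0 ± 21.2 CPM per kb (SD, n = 4), followed by *Ptges3*, *Ptgs2*, *Lta4h*, and *Alox5*, and the range of each of these overlapped that of the next. *Ptgs1* came next at 5.37 ± 1.42 CPM per kb, below all of *Alox5* and above all of *Ltc4s*. *Ltc4s*, *Hpgds*, *Ptges*, and *Ptges2* followed with means between 0.434 and 1.72 CPM per kb and overlapping ranges. In SAG-treated mice *Alox5ap* was at 239 ± 27.4 CPM per kb and lay above *Lta4h* (99.9 ± 25.3 CPM per kb) in 4 of 4 mice without overlap. *Lta4h*, *Alox5*, *Ptgs2*, and *Ptges3* then followed by their means, with overlapping ranges. The places of *Ptges3* in these orders are not firm, since *Alox5ap* lay above it in 2 of 4 DMSO-treated mice and *Ptgs2* above it in 2 of 4 SAG-treated mice. *Ptgs1* (9.54 ± 2.24 CPM per kb) again stood clear of both its neighbours, and *Ptges2* was lowest and clear of *Ptges*.

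**Figure D4:**
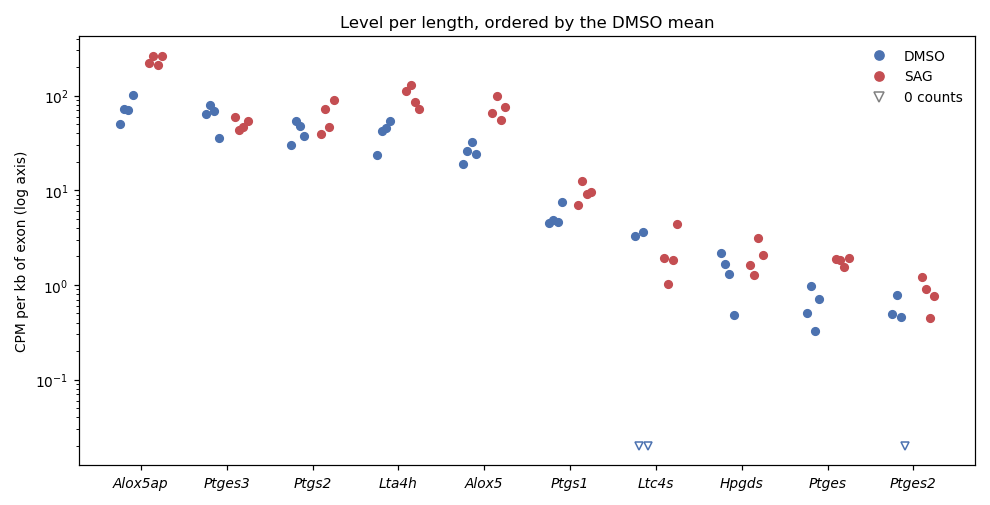
Level per exon length in CPM per kb (vertical axis, logarithmic) of the 10 genes, 1 point per mouse, DMSO in blue and SAG in red, ordered by the DMSO mean. Open triangles at the bottom mark libraries with 0 counts (*Ltc4s* in 2 and *Ptges2* in 1 DMSO-treated mouse); the 5 genes on the left lie above *Ptgs1* in both groups.

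Balances within the branches were compared as log2 ratios of counts in each mouse, with 0.5 added to each count. COX-2 to COX-1 ranged from 5.96 to 12.9 with DMSO and from 5.95 to 11.2 with SAG, a difference of -0.32 in mean log2 ratio (exact 2-sided permutation test over 70 relabellings, p = 0.314, adjusted p = 0.457 over 3 ratios). *Hpgds* to *Ptges* was between 1.11 and 7.15 with DMSO and between 1.12 and 3.32 with SAG, a difference of -0.99 (exact permutation test, p = 0.257, adjusted p = 0.457). *Ltc4s* to *Lta4h* differed by 1.87 (exact permutation test, p = 0.457, adjusted p = 0.457), but the ratio of the summed CPM of the groups, in which the zeros of 2 DMSO-treated mice weigh less, gave -0.87. All 3 ratios overlapped between the groups, and the smallest p this design can reach is 0.0286. With 1 mouse left out the differences ranged from -0.53 (without DMSO replicate 4) to -0.16 (without DMSO replicate 2) for COX-2 to COX-1, from -1.54 (without DMSO replicate 4) to -0.64 (without DMSO replicate 1) for *Hpgds* to *Ptges*, and from 0.39 (without DMSO replicate 2) to 3.42 (without DMSO replicate 1) for *Ltc4s* to *Lta4h*, with no exact permutation p under 0.0857. The branches themselves were set side by side after the values had been seen, without a test. The sum of the leukotriene genes over that of the 4 synthases was 1.85, 2.40, 3.14, and 6.64 in DMSO replicates 1 to 4 and 8.10, 13.5, 7.93, and 7.83 in SAG replicates 1 to 4, without overlap. Over the sum of the cyclooxygenases it was 1.89, 1.78, 2.20, and 2.81 with DMSO and 6.10, 4.10, 4.22, and 2.52 with SAG, where SAG replicate 4 lay below DMSO replicate 4.

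A list of 76 other eicosanoid genes was read beside the 10. Of these, 60 were in the table and 57 were tested. In edgeR 3 were called higher and 0 lower, beside 2.62% and 0.266% of all genes, and the median log2 fold change was 0.18. Taking an unadjusted p under 0.05 gave 6 higher and 3 lower genes of the 57, which is near the 9.58% and 6.50% of all genes. DESeq2 called 4 higher and 2 lower, beside 6.60% and 3.35% of the genes to which it gave an adjusted p. With limma voom 5 were higher and 1 lower, beside 6.45% and 2.58%. The genes called were *Cotl1*, *Mgst1*, and *Cyp4f18*. *Cotl1*, coactosin-like protein, which binds 5-lipoxygenase, was at 128, 170, 219, and 269 CPM with DMSO and at 494, 746, 541, and 663 CPM with SAG (replicates 1 to 4 in each), a log2 fold change of 1.64 (SE 0.25, edgeR adjusted p = 0.0102). *Mgst1*, a microsomal glutathione transferase of the same protein family as FLAP and leukotriene C4 synthase, was between 31.6 and 79.6 CPM with DMSO and between 105 and 199 CPM with SAG, with a log2 fold change of 1.65 (SE 0.31, edgeR adjusted p = 0.0185). *Cyp4f18*, a cytochrome P450 that hydroxylates leukotriene B4, was between 30.0 and 49.1 CPM with DMSO and between 58.9 and 101 CPM with SAG, with a log2 fold change of 1.25 (SE 0.24, edgeR adjusted p = 0.0213). The groups did not overlap for any of the 3, but with 1 mouse left out only *Cotl1* was called in all 8 fits. The list counted 5 higher genes without DMSO replicate 4 and 1 without DMSO replicate 1, DMSO replicate 2, SAG replicate 2, or SAG replicate 4. *Mgst1* was called in 3 of the 8 fits and *Cyp4f18* in 3. With the neutrophil covariate 0 genes of the list were called.

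In edgeR, 0 of 12 tested genes listed under arachidonic acid release and 0 of 5 tested leukotriene receptors were called. Without adjustment 1 and 1 were higher and 2 and 0 lower. The higher gene of the release list was *Pla2g7*, the hydrolase of platelet-activating factor. DESeq2 called 1 gene of release lower and 1 leukotriene receptor higher, and so did limma voom. *Pla2g4a*, the cytosolic phospholipase that releases arachidonic acid, was between 20.3 and 39.1 CPM with DMSO and between 27.4 and 52.5 CPM with SAG (log2 fold change 0.48, edgeR adjusted p = 0.481). *Ltb4r1*, the high-affinity receptor of leukotriene B4, was at 9.14, 13.5, 7.19, and 27.0 CPM with DMSO and at 33.9, 52.6, 42.6, and 37.6 CPM with SAG. The groups did not overlap, and the log2 fold change of 1.56 (standard error 0.40) missed the threshold (edgeR adjusted p = 0.0663), while DESeq2 and limma voom called it. The low-affinity receptor *Ltb4r2* stayed at or below 1.66 CPM in every library. Among the receptors of prostaglandin E2, *Ptger4* was between 7.53 and 22.3 CPM with a log2 fold change of 0.20 (edgeR adjusted p = 0.887), *Ptger2* was between 0.350 and 17.8 CPM with 0.52 (edgeR adjusted p = 0.878), and *Ptger1* and *Ptger3* were at most 6.20 and 1.51 CPM. Of the 7 tested prostanoid receptors and the 7 tested other prostanoid synthases 0 were called (0 of each at an unadjusted p under 0.05 in edgeR, and 1 receptor, *Ptgir*, higher in limma voom).

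The genes most like each member over the 8 libraries were found by the smallest root mean square difference of centred log2 CPM, among genes outside the group of 10. For *Alox5* these were *Rhog* (difference 0.15), *Siglece* (0.17), and *Ampd3* (0.17). For *Alox5ap* they were *Cotl1* (0.14), *Tmem154* (0.15), and *Cd101* (0.17), and for *Lta4h* *Hmgn2* (0.16), *Tuba4a* (0.16), and *Rps6ka1* (0.19). All but *Tuba4a* of these 9 genes were called higher with SAG, beside 2.62% of all genes. They were picked for likeness to called genes over the same 8 libraries, so their calls follow from the choice and add no support. *Ptgs1* was followed most closely by *Ranbp9* (0.08), *Bin3* (0.10), and *Kif3b* (0.10), and *Ptgs2* by *Fas* (0.15), *Maml1* (0.18), and *Kpna4* (0.18). *Ptges3* was nearest to *Bbx* (0.10), *Mgat4a* (0.10), and *Irs2* (0.10), *Ptges* to *Tes* (0.24), and *Hpgds* to *Rsl24d1* (0.20). The match was loose for *Ltc4s*, whose nearest gene *Ccdc122* differed by 0.50, and for *Ptges2*, whose nearest gene *Wdr4* differed by 0.40. These likenesses are descriptions over 8 libraries that share depth and makeup.

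**Figure D5:**
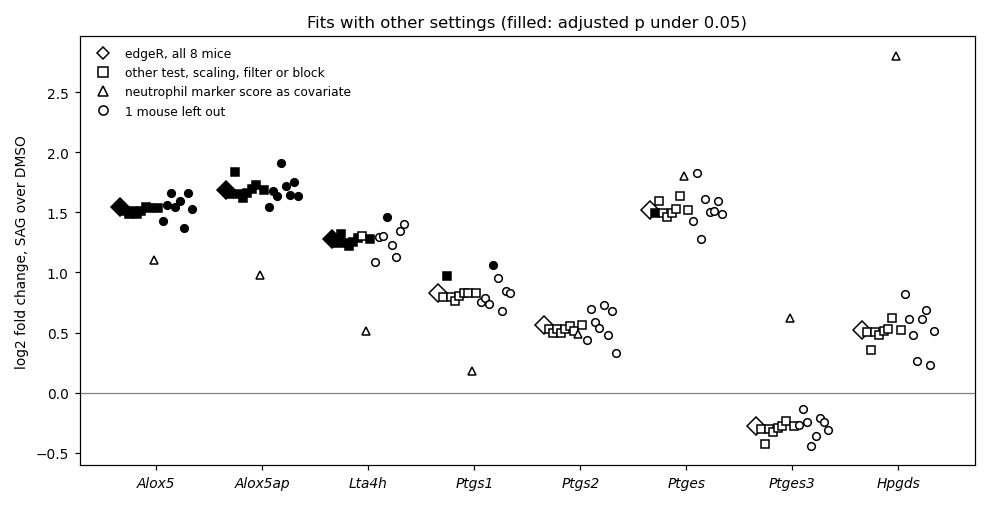
Log2 fold changes of SAG over DMSO (vertical axis) of 8 of the 10 genes in the edgeR fit of all 8 mice (diamonds) and in 17 other fits, with squares for another test, scaling, filter, or the replicate block, triangles for the neutrophil covariate, and circles for 1 mouse left out. Filled symbols had an adjusted p under 0.05: *Alox5* and *Alox5ap* are filled in 16 of 17 other fits, *Lta4h* in 8, *Ptgs1* in 2, and *Ptges* in 1.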

How the data were processed

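RNA sequencing of sorted cells from 8 mice was analysed, with 1 library per mouse and groups taken from the deposited labels. The authors deposited raw counts per gene and mouse, whole numbers without normalization. The submitters' processing notes name kallisto, DESeq2, and GRCm38 without versions or roles, so the counts may be rounded estimates, and how reads shared by similar genes were assigned is not given in the sources used here. Of the 16536 symbols, 16524 were found in GENCODE M21 (GRCm38), which gave coordinates and exon lengths.

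Counts were tested in R 4.3.3 with edgeR 4.0.16 (filterByExpr, TMM, robust quasi-likelihood test, Benjamini-Hochberg adjustment over 15421 genes, threshold 0.05, replicate numbers not used). The standard error is the absolute log2 fold change divided by the square root of F. For log2 CPM a prior count of 2 was added. The fits were also run on counts simulated gene by gene, with changes set in genes picked at random. These counts lacked the shared shifts of marker lists seen in the data, and the outcome is not given here. Alternatives were DESeq2 1.42.0, limma 3.58.1 voom, other scalings and filters, leaving out 18 genes of mitochondria, ribosomal RNA, and globins, a replicate block, a neutrophil marker covariate, and each mouse left out in turn.

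Named were the 10 genes, pathway genes with an adjusted p under 0.05, *Pla2g4a*, the receptors of leukotriene B4 and prostaglandin E2, cell type markers, and up to 3 genes of nearest pattern for each of the 10 genes with a mean count of at least 50. The genes, lists, and tests were chosen with earlier results of these data known. The result of 1 marker gene is not reported here.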

Additional observations from a re-analysis of the deposited data

Results flagged for a closer look

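*Ptgs1* in DMSO-treated mice had 1 mouse far from the others. DMSO replicate 4 was at 29.1 CPM, while the other 3 lay between 17.4 and 18.9 CPM, so its gap to the nearest mouse took a share of 0.872 of the whole range of the group (above Dixon's critical value for 4 samples). Of 26 groups examined 1 was flagged, where chance gives about 1 in 20. The same library had the fewest counts and the fewest genes detected.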

How the results depend on the processing

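*Alox5* and *Alox5ap* kept their calls under 16 of 17 alternatives and lost them with the neutrophil covariate, and *Lta4h* kept its call under 8. With that covariate 0 of the 10 genes and 0 pathway genes were called higher, the log2 fold change of *Ptges3* turned to 0.62, those of *Ptges2*, *Hpgds*, and *Ltc4s* moved to 5.11, 2.80, and 1.79, and the median of all genes moved by 0.11. With 1 mouse left out, between 2 and 4 of the 10 genes and between 1 and 5 pathway genes were higher, and between 0 and 1 pathway genes lower. *Ltc4s* lay between -0.11 (without SAG replicate 4) and 1.06 with 1 mouse left out, with -0.00 without DMSO replicate 2, and reached 2.94 with limma voom and 2.79 with the replicate block, and its ratio to *Lta4h* turned to -0.87 from summed CPM, because the zeros then weigh less. Pathway genes called higher were 5 with limma voom, and those called lower were 2 with DESeq2 (*Pla2g5*, *Hpgd*), 1 with limma voom (*Pla2g5*), and 1 with at least 10 counts in every sample (*Pla2g5*). The cause of these other moves was not tested. Over the whole table the calls were 812 higher and 413 lower with DESeq2, 995 and 398 with limma voom, 558 and 87 with at least 10 counts in every sample, and 1017 and 343 without DMSO replicate 4, against 404 and 41. They were 80 and 6 without DMSO replicate 2, 92 and 7 without SAG replicate 4, 94 and 4 without DMSO replicate 3, 138 and 6 without SAG replicate 2, 187 and 16 without DMSO replicate 1, and 225 and 8 without SAG replicate 3, so the shares over all genes rest on which mice are kept. The replicate numbers name different mice, and the labels give no pairing. Correlations of same-numbered deviations were 0.120, 0.0219, 0.0195, and 0.0102, and 4 of 8 libraries correlated best with their own number. These values do not decide whether mice of the same number shared a batch. With the replicate block 2 of the 10 genes were called (*Alox5* 1.54, *Alox5ap* 1.73) and *Lta4h* had 1.31 (adjusted p = 0.0688 from edgeR), with 334 higher and 18 lower genes in all. *Ltc4s* and *Ptges2* were not tested with at least 10 counts in every sample. Below 8 CPM *Ltc4s*, *Ptges*, and *Ptges2* had the widest errors, between 0.59 and 1.57.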

Other observations

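*Alox15*, the 12/15-lipoxygenase, was at 33.9, 113, 120, and 84.6 CPM in DMSO replicates 1 to 4 and at 36.4, 255, 146, and 53.4 CPM in SAG replicates 1 to 4, with overlapping groups (log2 fold change 0.48, adjusted p = 0.761 from edgeR). The eosinophil markers beside it summed to 3471, 20543, 12558, and 6848 CPM and to 4792, 30881, 11915, and 7110 CPM in the same mice. Replicate 1 of each group was lowest and SAG replicate 2 highest in both measures. Among DMSO-treated mice, however, *Alox15* was highest in replicate 3 and the eosinophil sum in replicate 2. This gene and those that follow were chosen after their values were seen.

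Several genes listed under arachidonic acid release, prostaglandin breakdown, and cysteinyl leukotriene processing had low unadjusted p without passing the adjusted test in edgeR. *Pla2g5*, a secreted phospholipase, was at 60.1, 107, 108, and 34.8 CPM with DMSO and at 30.0, 8.91, 30.8, and 26.4 CPM with SAG, without overlap (log2 fold change -1.69, adjusted p = 0.0666 from edgeR). *Hpgd*, the dehydrogenase that inactivates prostaglandin E2, was at 30.3, 19.0, 24.7, and 37.1 CPM with DMSO and at 6.27, 7.18, 20.8, and 10.1 CPM with SAG (log2 fold change -1.33, adjusted p = 0.131 from edgeR). In the other direction *Pla2g7*, the hydrolase of platelet-activating factor, was at 76.8 to 95.3 CPM with DMSO and at 110 to 200.3 CPM with SAG, without overlap (log2 fold change 0.71, adjusted p = 0.122 from edgeR), and *Mgst2*, a transferase that can form leukotriene C4, was at 1.61 to 12.3 CPM and 12.9 to 34.6 CPM, again without overlap (log2 fold change 1.44, adjusted p = 0.224 from edgeR).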
